A study of Mus musculus with 7 samples.

Results

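The 9 genes described here encode proteins of neutrophil granules and of neutrophil extracellular traps (NETs). They were chosen by name to set early genes, mostly of the promyelocyte, against late genes. They are 9 of the 51789 genes in the deposited table, and each mapped to 1 row. The early side holds Mpo, Elane, Prtn3 and Ctsg, whose proteins fill the primary (azurophil) granules, together with Ms4a3, Fcnb and Olfm4. Of these, Olfm4 encodes a protein of the specific (secondary) granules, which are made after the promyelocyte stage. The late side holds Mmp9, which encodes the gelatinase of the late granules, and Padi4, whose enzyme converts histone arginine to citrulline during NET release.

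RNA came from mouse granulocytes of 2 genotypes of Alox15, with 4 wild-type and 3 knockout libraries. Alox15 is the gene of arachidonate 15-lipoxygenase, and every library carried the label untreated. The deleted part of Alox15, the age of the animals, the organ and the way the cells were purified are not given in the sources used here. Replicates of a genotype are not labelled as separate animals, so the p-values reflect only how much these libraries differed, and part of that may be technical. The QuantSeq kit used on the polyA RNA tags transcripts near their 3′ end. Levels are given as CPM, the usual counts-per-million scale, and were not divided by transcript length because a transcript gives tags at its end alone.

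Neutrophils make their granules in order while they mature. Promyelocytes in the bone marrow transcribe the primary granule genes, myelocytes and metamyelocytes transcribe the specific (secondary) granule genes, and band and segmented cells transcribe the gelatinase genes. The proteins made early stay packed in the granules of the mature cell after their mRNA has gone, so a cell can carry elastase protein without elastase mRNA.

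Library totals ran from 3228292 to 5657192 counts, and 14657 to 15560 genes had a count in a library. Wild type 2 and knockout 3 stood apart. The mean log2 CPM of 14 mature neutrophil genes that include none of the 9 was 6.23 and 5.82 there, against 8.03 to 9.62 in the other 5 libraries. The summed level of 8 T cell markers spanned 245 to 585 CPM among wild-type libraries and 316 to 894 CPM among knockouts, and knockout 3 had the most. Monocyte and macrophage markers (10 of 10 with counts) summed to 170 to 582 CPM among wild-type libraries and 222 to 1252 CPM among knockouts. Erythroid and platelet markers summed to 198 to 1028 CPM among wild-type libraries and 276 to 1172 CPM among knockouts. In edgeR 10 of 10 monocyte and macrophage markers and 6 of 6 B cell markers were nominally higher in knockout. So were 5 of 5 tested stromal and endothelial markers and 5 of 5 tested erythroid and platelet markers. This compares with 6428 of all 12506 genes tested, and 0 were called in each list. Sparc and Pecam1, of the stromal and endothelial list, had an unadjusted edgeR p of 0.0311 and 0.0322 and did not overlap between genotypes. Over all 12506 genes tested, 1.23% had an unadjusted edgeR p under 0.05 and 3.13% did not overlap. The part of Sparc and Pecam1 in the results was not tested. Of 6 basophil and mast cell markers, 5 were at 0 in all libraries, and the remaining one, Cpa3, stood at 1.79 to 24.7 CPM. Of 6 eosinophil markers, Epx was at 0 and 5 had counts. Among these, Siglecf stood at 0.596 to 11.4 CPM and Ccr3 at 0.389 to 5.98 CPM. Alox15 had 0 counts in all libraries but knockout 1, which had 1 count, so it does not check the genotype labels. Knockouts 2 and 3 carried another stem in their description than the other 5 libraries and also stood apart in Xist (382 and 102 CPM, against 0.896 to 6.11 CPM in the rest), so for these libraries sex, stem and genotype cannot be told apart.

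Transcripts of the 4 primary granule genes among the 9 were at or near 0 in every library, while Mmp9 was among the abundant transcripts. Mpo, Elane, Prtn3 and Ctsg together had 18 counts among the 31979006 of all libraries, or 0.563 CPM (exact 95% Poisson interval 0.334 to 0.890). Mmp9 had 14917 counts, or 466 CPM (459 to 474). Mmp9 thus gave 828.7 tags for each tag of the 4 primary granule genes together (exact 95% interval 524 to 1399). PCR reads without molecular identifiers are not independent molecules, so these intervals, and the limits of 3 counts used for genes at 0, cover counting error only.

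**Figure D1:**
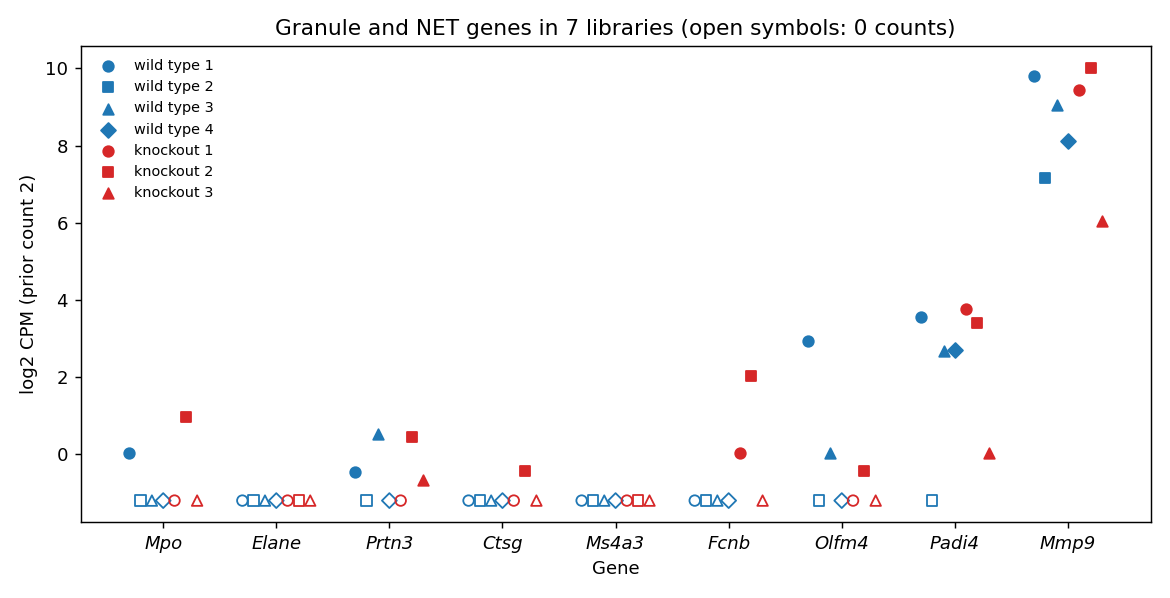
Log2 CPM (prior count 2) of the 9 genes, 1 symbol per library, wild type in blue and knockout in red, with open symbols for 0 counts. Elane and Ms4a3 are open in all 7 libraries, the other early genes have counts in 1 to 4 libraries, and Mmp9 lies between 6.05 and 10.02.

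The start regions of Elane, Prtn3 and Padi4 are printed here to show where 3 short motifs lie in them. Elane and Prtn3 lay at or near 0, and Padi4 was detected. Elane (ENSMUSG00000020125, chromosome 10, 79886247 to 79888215, plus strand, protein-coding, 5 exons) and Prtn3 (ENSMUSG00000057729, chromosome 10, 79874476 to 79883174, plus strand) are neighbours, 3072 bases apart. Padi4 (ENSMUSG00000025330) lies on the minus strand of chromosome 4, 140745865 to 140774236. Each window runs from 250 bases before to 50 bases after the transcription start, 5′ to 3′ on the gene's strand, from RefSeq on GRCm38.p6. The windows are chr10:79886062-79886361 for Elane, chr10:79879417-79879716 for Prtn3 and chr4:140774154-140774453 for Padi4. The gene bounds are from GENCODE, and the Prtn3 window lies inside its bounds and not at their start. Capitals mark 3 motifs, searched on both strands. GGAAGT is a form of the site bound by the myeloid factor PU.1 and its relatives. The letters AACGG are a form of the site bound by MYB, a factor of progenitor cells. The letters CTATAA are a form of the TATA box, where transcription starts are set.
Elane: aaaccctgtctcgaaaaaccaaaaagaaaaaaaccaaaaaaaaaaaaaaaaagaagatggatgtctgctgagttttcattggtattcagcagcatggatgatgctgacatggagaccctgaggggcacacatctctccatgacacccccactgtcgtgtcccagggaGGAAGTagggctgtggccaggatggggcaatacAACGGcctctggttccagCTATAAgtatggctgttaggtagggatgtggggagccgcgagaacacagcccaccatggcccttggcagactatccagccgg
Prtn3: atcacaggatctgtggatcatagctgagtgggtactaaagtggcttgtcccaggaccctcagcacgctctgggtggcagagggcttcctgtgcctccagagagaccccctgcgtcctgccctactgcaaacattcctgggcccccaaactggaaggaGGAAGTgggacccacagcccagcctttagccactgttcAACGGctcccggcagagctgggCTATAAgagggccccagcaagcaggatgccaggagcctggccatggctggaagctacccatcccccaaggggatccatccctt
Padi4: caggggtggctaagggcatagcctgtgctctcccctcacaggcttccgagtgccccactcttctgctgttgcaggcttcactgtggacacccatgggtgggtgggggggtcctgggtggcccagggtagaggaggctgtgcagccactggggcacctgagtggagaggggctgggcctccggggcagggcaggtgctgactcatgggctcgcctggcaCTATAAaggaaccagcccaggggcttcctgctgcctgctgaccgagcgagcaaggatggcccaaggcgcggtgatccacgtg

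In Elane the 3 motifs start 83, 50 and 32 bases before the transcription start, and in Prtn3 they start 93, 55 and 33 bases before it, so these neighbours hold them in the same order and at like distances. Padi4 holds CTATAA alone, 32 bases before the start. Over the 8 of the 9 genes in the promoter table, which has no window for Mmp9, GGAAGT occurred on either strand in 7 of 8, in each of the 7 early genes. The same 6 letters occurred in 23.8% of all 32851 promoter windows of this length. AACGG occurred in 2 of 8 (17.4% of all windows) and CTATAA in 5 of 8 (8.18% of all windows). The motifs were chosen after the sequences were read, the matches in Elane and Prtn3 do not overlap, and a match is a description of the letters.

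Elane, the gene of neutrophil elastase, a serine protease that is also found on NETs, had 0 counts in all 7 libraries. With a limit of 3 counts, a count of 0 allows up to 0.0938 CPM over the 31979006 counts. In single libraries it allows from 0.530 CPM (wild type 2) to 0.929 CPM (knockout 2). Mmp9 was 4972-fold above this floor of 3 counts, taken over all 7 libraries together. The exact 95% interval used for the other genes reached a higher limit for Elane, 0.115 CPM, which gives a smaller ratio. Prtn3, the neighbour of Elane, encodes the related serine protease proteinase 3. It had 1, 0, 5 and 0 counts in wild type 1 to 4 and 0, 3 and 1 counts in knockout 1 to 3. The highest of these was 1.00 CPM in wild type 3 before scaling (exact 95% interval 0.326 to 2.34), and the intervals of all 7 libraries overlap one another. The next gene after Elane, Cfd, had 101 counts, and Ptbp1, on the other side of Prtn3, had 3488.

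Mpo (ENSMUSG00000009350, chromosome 11, 87793581 to 87804413, plus strand) encodes myeloperoxidase, which makes hypochlorous acid from hydrogen peroxide and is the classical marker of primary granules. It had 2 counts in wild type 1, 5 in knockout 2 and 0 in the other libraries. Ctsg (chromosome 14, 56099881 to 56102574, minus strand), which encodes cathepsin G, had 1 count, in knockout 2. Knockout 2 thus held 9 of the 18 counts of the primary granule genes, wild type 3 held 5, wild type 1 held 3 and knockout 3 held 1.

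Reads that match several genes could lower a gene's count. Of the stretches of 50 bases in the last 300 bases of their protein-coding transcripts, the share found in transcripts of any other gene in GENCODE M21, on either strand, was 0% for Elane, Prtn3, Ctsg, Ms4a3, Fcnb, Olfm4, Padi4 and Mmp9. For Mpo it was 10.9%, all in the antisense gene Gm11505, which had 0 counts.

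Ms4a3, a membrane protein gene that marks granulocyte and monocyte progenitors, had 0 counts in all 7 libraries (chromosome 19, 11629496 to 11640851, minus strand). Fcnb (chromosome 2, 28076378 to 28084885, minus strand) encodes ficolin B, a lectin of immature neutrophils that recognises microbial sugars. It had 12 counts in knockout 2, 3 in knockout 1 and 0 in the other 5 libraries. The level in knockout 2 was 3.72 CPM before scaling (exact 95% interval 1.92 to 6.49), above the limit of 3 counts, 0.530 to 0.832 CPM, in the wild-type libraries. Without the filter on low counts edgeR gave Fcnb an unadjusted p of 0.0337 and an adjusted p of 0.961, so the difference between genotypes did not pass. Of its 15 counts 12 were in knockout 2.

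Olfm4 (chromosome 14, 79984081 to 80023139, plus strand) encodes olfactomedin 4, a specific granule protein that marks a subset of neutrophils. It had 24 counts in wild type 1, 3 in wild type 3, 1 in knockout 2 and 0 in wild type 2, wild type 4, knockout 1 and knockout 3. The level in wild type 1, 6.65 CPM before scaling (exact 95% interval 4.26 to 9.90), lay above the intervals of all other libraries. Without the filter the log2 fold change of Olfm4, knockout against wild type, was -4.08 ± 2.43 (SE; edgeR unadjusted p = 0.0998, adjusted p = 0.961). Fcnb and Olfm4 had no counts in wild type 2, wild type 4 and knockout 3.

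Over the 7 early genes there were 27 counts in wild type 1, 22 in knockout 2, 8 in wild type 3, 3 in knockout 1, 1 in knockout 3 and 0 in wild type 2 and wild type 4. By genotype this came to 35 of 18152398 counts in wild type, or 1.93 CPM (exact 95% interval 1.34 to 2.68), and 26 of 13826608 in knockout, or 1.88 CPM (1.23 to 2.76). Olfm4, a specific granule gene, gave 27 of the 35 wild-type counts and 1 of the 26 knockout counts, so the wild-type level rests largely on it. None of the 7 passed the filter for testing, because their counts were too low in both genotypes.

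The specific granule genes Ltf, Ngp, Lcn2 and Hp, of the stage between, lay below Mmp9 and above Mpo, Elane, Prtn3 and Ctsg in every library. The order did not hold for Prss57, another primary granule gene, described below. At 42.0 CPM in wild type 2 and 80.6 CPM in knockout 3, Prss57 lay above each of the specific granule genes named here. In knockout 3 it also lay above Mmp9, at 65.8 CPM. In wild type 4, at 62.0 CPM, Prss57 lay above Ltf, Ngp and Lcn2 but below Hp. In wild type 3, at 27.8 CPM, it lay above Ltf alone. Between the lowest and the highest library Ltf spanned 64.2-fold and Ngp 43.2-fold, more than the 15.8-fold of Mmp9, while Lcn2 spanned 13.2-fold and Hp 12.8-fold. Ltf, which encodes lactoferrin, an iron-binding protein, stood at 280, 11.7, 17.5 and 23.0 CPM in wild type 1 to 4 and at 222, 299.9 and 4.67 CPM in knockout 1 to 3. Ngp, which encodes neutrophilic granule protein, stood at 387, 22.7, 51.4 and 47.9 CPM and at 269, 323 and 8.96 CPM. Both were high in wild type 1, knockout 1 and knockout 2 and low in the other 4 libraries, so the genotypes overlapped. Lcn2, which encodes the siderophore-binding lipocalin 2, stood at 261 to 340 CPM in those 3 libraries and at 25.8 to 78.5 CPM in the other 4. Hp, which encodes the haemoglobin-binding haptoglobin, stood at 175 to 243 CPM and at 18.9 to 104 CPM in the same sets. Mmp9 gave 3.20, 3.13 and 3.46 tags per Ltf tag in those 3 libraries and 12.1 to 30.2 in the other 4, where wild type 3 had the highest ratio. Of the 18 counts of the primary granule genes 12 were in these 3 libraries, and of the 43 counts of Fcnb and Olfm4 together 40.

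**Figure D2:**
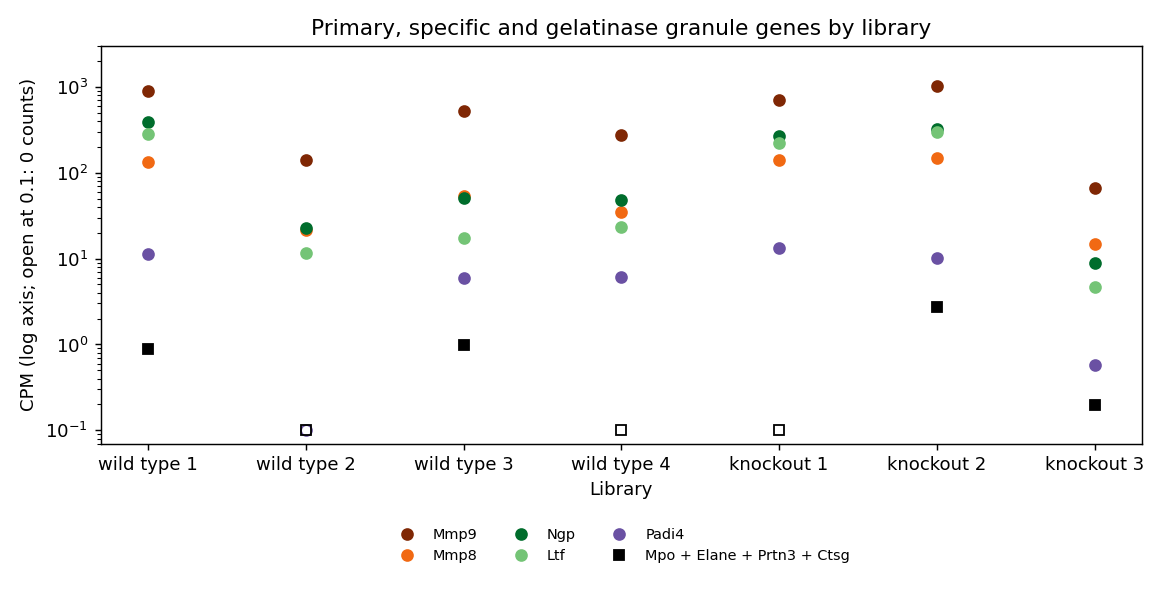
CPM on a log axis in each library for the gelatinase granule genes Mmp9 and Mmp8, the specific granule genes Ngp and Ltf, the late gene Padi4 and the sum of the 4 primary granule genes, with open symbols at 0.1 for 0 counts. Mmp9 is the highest and the primary granule sum the lowest or joint lowest in every library, between 0 and 2.76 CPM.

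Mmp9 (ENSMUSG00000017737, chromosome 2, 164940780 to 164955850, plus strand, protein-coding) encodes matrix metalloproteinase 9, which degrades gelatin and basement membrane collagen. It stood at 896, 142, 528 and 279 CPM in wild type 1 to 4 and at 695, 1037 and 65.8 CPM in knockout 1 to 3. Knockout 2 was highest and knockout 3 lowest, and every wild-type value lay between them. Ranked by counts, Mmp9 was number 102 of the 15280 genes detected in knockout 2, number 152 in wild type 1 and number 2687 of 15541 in knockout 3.

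Mmp8, the neutrophil collagenase, followed Mmp9 at a lower level, at 132, 21.8, 53.0 and 35.2 CPM in the wild-type libraries and at 139, 148 and 15.0 CPM in the knockouts. Mmp9 gave 4.39 to 9.96 tags for each Mmp8 tag, on average 7.80 ± 1.56 (SD) over the 4 wild-type libraries and 5.46 ± 1.37 (SD) over the 3 knockouts. These ranges overlapped between genotypes.

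Padi4 was detected in 6 of 7 libraries, at 38, 0, 30 and 23 counts in wild type 1 to 4 and 68, 33 and 3 counts in knockout 1 to 3. In CPM this was 11.4, 0, 5.96 and 6.09 in wild type and 13.2, 10.1 and 0.584 in knockout. The 2 lowest libraries were wild type 2 and knockout 3, which were also the lowest for Mmp9, and the other values of the genotypes overlapped. Mmp9 exceeded Padi4 by 76.5 tags to 1 over all libraries (exact 95% interval 66.4 to 88.6), and by 45.8 (wild type 4) to 113 (knockout 3) in the libraries with Padi4 counts. The related arginine deiminase genes Padi2 and Padi3, named here after their values were seen, stood at 0.795 to 6.03 CPM and at 1.94 to 6.74 CPM.

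The comparison of knockout with wild type asks which transcripts differ in granulocytes without Alox15, and neither late gene passed the test. Mmp9 averaged 461 ± 331 CPM (SD) over 4 wild-type libraries and 599 ± 493 CPM (SD) over 3 knockout libraries. Its log2 fold change was 0.38 ± 0.85 (SE; edgeR quasi-likelihood test, unadjusted p = 0.666, Benjamini-Hochberg adjusted p = 0.99995, 0.888 to 1 in the alternatives). Padi4 averaged 5.85 ± 4.64 CPM (SD) and 7.97 ± 6.58 CPM (SD) over the same libraries. Its log2 fold change was 0.46 ± 1.28 (SE; edgeR, unadjusted p = 0.729, adjusted p = 0.99995, 0.888 to 1 in the alternatives). Both standard errors exceed the fold changes, and a p that misses the threshold does not show equal levels.

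Of the 9 genes, 2 passed the filter on low counts, and 0 of these 2 were called in edgeR at an adjusted p under 0.05, against 0 of the 12506 genes tested (0%). At an unadjusted p under 0.05 there were 0 of 2, against 154 genes (1.23%). The groups did not overlap for 0 of 2, against 392 genes (3.13%). DESeq2 called 1 gene, Impdh2-ps, which is not among the 9, with 354 genes at an unadjusted p under 0.05, and limma-voom called 0 with 534. The direction of Mmp9 turned without knockout 2 (log2 fold change -0.28) and that of Padi4 without knockout 1 (-0.14). Among libraries of the stem e1.Y alone, 4 wild type and 1 knockout, the values were 0.55 ± 0.80 (SE) for Mmp9 and 1.15 ± 1.49 (SE) for Padi4. The other stem held knockouts only and gave no value.

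**Figure D3:**
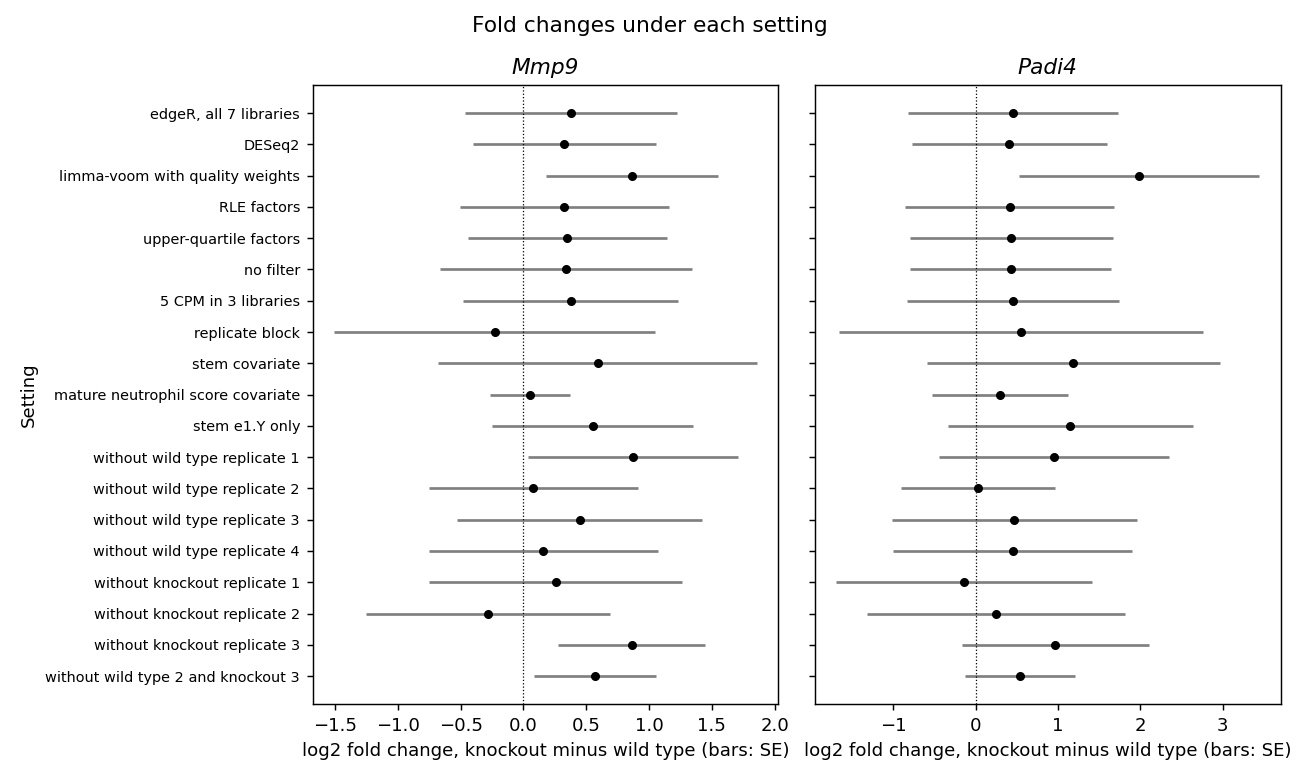
Log2 fold change of Mmp9 and Padi4, knockout minus wild type, in edgeR with all 7 libraries and under each of 18 other settings, with bars for the standard error. The values run from -0.28 to 0.87 for Mmp9 and from -0.14 to 1.99 for Padi4, and none passed an adjusted p under 0.05.

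Between libraries, both late genes were lowest in wild type 2 and knockout 3, as was the mature neutrophil mean. Mmp9 spanned 15.8-fold over the 7 libraries, and 3.97 on the log2 scale. Less the mean log2 CPM of the 14 mature neutrophil genes in the same library, it spanned 1.08, from 0.098 in wild type 4 to 1.17 in knockout 2. By genotype this difference averaged 0.52 ± 0.44 (SD) over the 4 wild-type libraries and 0.54 ± 0.55 (SD) over the 3 knockouts. For Padi4 the same difference ran from -7.42 in wild type 2 to -5.32 in wild type 4, a span of 2.10. The value in wild type 2 rests on 0 counts and so on the prior count, and over the 6 libraries with Padi4 counts the span was 0.74. With the 14-gene mean as a covariate in edgeR, the log2 fold change of Mmp9 was 0.054 ± 0.32 (SE) and that of Padi4 0.30 ± 0.83 (SE), each with an adjusted p of 0.99993. The summed monocyte and macrophage markers were also lowest in wild type 2 (170 CPM) and knockout 3 (222 CPM), against 434 to 1252 CPM elsewhere. These 2 libraries were thus low in more than neutrophil transcripts, and the part of other myeloid cells in the Mmp9 values was not tested. In bulk RNA, fewer neutrophils in a library and less RNA of a gene per neutrophil cannot be told apart.

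**Figure D4:**
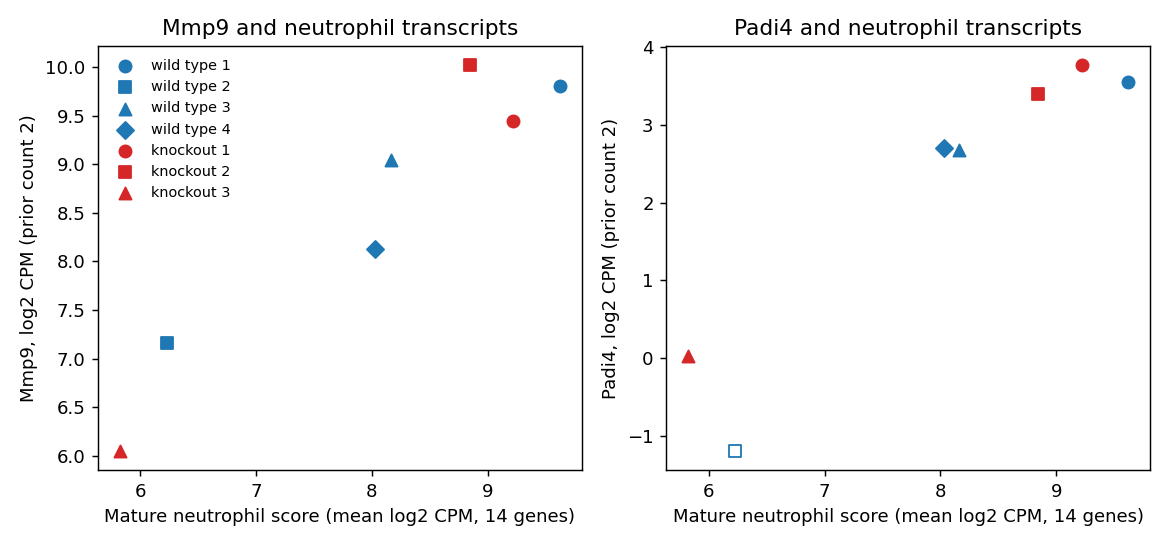
Log2 CPM (prior count 2) of Mmp9 and of Padi4 against the mean log2 CPM of 14 mature neutrophil genes, 1 symbol per library, blue for wild type and red for knockout, with an open symbol for 0 counts. Wild type 2 and knockout 3 lie at the low end on both axes, and the genotypes are mixed along each plot.

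How evenly Mmp9 ran with a single neutrophil gene depended on the gene, and Cxcr2 and S100a8 are 2 with uneven ratios. Mmp9 gave 0.972, 1.98, 1.38 and 0.406 tags per tag of Cxcr2, the chemokine receptor of mature neutrophils, in wild type 1 to 4 and 1.51, 1.88 and 1.74 in knockout 1 to 3. Wild type 4 was lowest, with 686 CPM of Cxcr2 against 279 CPM of Mmp9. Per 100 tags of S100a8, a calcium-binding protein gene of neutrophils, Mmp9 gave 8.55, 14.7, 12.97 and 4.15 tags in wild type and 9.03, 23.6 and 6.68 in knockout. Both ratios overlapped between genotypes.

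The genes whose profile over the 7 libraries was most like that of Mmp9 were found by the root mean square difference of log2 CPM, after each gene was centred on its own mean, among 8329 genes at a mean log2 CPM of 3 or more. They were Usp2, a ubiquitin-specific protease (difference 0.181), Fpr2, a formyl peptide receptor (0.188), Gcnt1, a glycosyltransferase that builds core O-glycans (0.193), Ppp1r3b, a glycogen-targeting phosphatase subunit (0.266), and Il18rap, an interleukin 18 receptor chain (0.275). The median over all 8329 genes was 1.42. Fpr2 stood at 331, 37.7, 133 and 78.1 CPM in the wild-type libraries and at 228, 345 and 22.0 CPM in the knockouts, in the same order of libraries as Mmp9. Il1r2, a decoy receptor for interleukin 1, came at rank 17 (0.320), Itgam, an integrin chain of myeloid cells, at rank 28 (0.349), Mmp8 at rank 37 (0.370), Cxcr2 at rank 546 and Ngp at rank 551. No other of the 9 genes reached that mean level.

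Other genes of primary granules were detected, but those with the highest levels are not limited to promyelocytes. The list held 14 genes, Mpo, Elane, Prtn3 and Ctsg among them, of which 12 had counts and 9, none of those 4, were tested, with 6 nominally higher and 3 lower in knockout, 0 called in either direction, and a median log2 fold change of 0.29 (all tested genes 0.012). Srgn, the serglycin proteoglycan that packs granule proteases, stood at 346 to 1135 CPM in wild type and 107 to 1295 CPM in knockout. Lyz2, lysozyme of macrophages and neutrophils, stood at 149 to 712 and 393 to 888 CPM. Man2b1, a lysosomal mannosidase, stood at 92.0 to 161 and 76.1 to 143 CPM, and the membrane protein gene Cd63 at 27.4 to 97.7 and 36.4 to 105 CPM. Bpi, which encodes a bactericidal protein that binds endotoxin, had 0 counts in all libraries.

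Prss57, chosen for mention after its values were seen, encodes neutrophil serine protease 4 of the primary granule and went against the other proteases. It stood at 28.7, 42.0, 27.8 and 62.0 CPM in the wild-type libraries and at 35.0, 38.3 and 80.6 CPM in the knockouts. The highest value was in knockout 3, the library with the least Mmp9, and the genotypes overlapped. Prss57 overlaps Fstl3, on the opposite strand, by 1157 bases at its 3′ end, and Fstl3 had 98 counts against 1457 for Prss57. The lowest value of Prss57 was in wild type 3. The summed T cell markers were also highest in knockout 3, at 894 CPM, but lowest in wild type 1, at 245 CPM. Single markers differed, since Cd3d was highest in knockout 3 (441 CPM), Cd3e in wild type 4 (137 CPM) and Cd3g in wild type 2 (53.1 CPM). The 12 proliferation genes summed highest in wild type 4 (6329 CPM) and knockout 3 (5798 CPM), which were also the highest for Prss57. Their sum was lowest in wild type 1 (2868 CPM), not in wild type 3. Whether T lineage cells or dividing cells account for the Prss57 tags was not tested.

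Of 12 promyelocyte and progenitor genes, 11 had counts and 8 were tested, with 6 nominally higher and 2 lower in knockout, 0 called, and a median log2 fold change of 0.072. Myb, a transcription factor of progenitors and of thymocytes, stood at 150 to 230 CPM in wild type and 159 to 234 CPM in knockout. Hmgn5, a nucleosome-binding protein, stood at 54.1 to 99.0 and 67.7 to 137 CPM, and Gfi1, a repressor that acts in granulocyte and lymphoid precursors, at 13.1 to 35.2 and 13.6 to 34.7 CPM. Myb, Hmgn5 and Gfi1 were all lowest in wild type 1, where the summed T cell markers were lowest. Igsf6, an immunoglobulin superfamily gene of myeloid cells, ran the other way, at 113, 5.95, 37.5 and 19.1 CPM in the wild-type libraries and at 52.7, 46.9 and 3.51 CPM in the knockouts.

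Of the other factors of granule formation, Spi1, which encodes PU.1, stood at 36.5 to 452 CPM in wild type and 50.4 to 295 CPM in knockout. Cebpb stood at 38.1 to 299 and 29.0 to 294 CPM, and Cebpd at 14.4 to 153 and 18.5 to 150 CPM. Of the 12 factors listed, 10 were tested, with 6 nominally higher and 4 lower in knockout, 0 called, and a median log2 fold change of 0.016. Cebpe, which turns on specific granule genes and was picked out after its values were seen, had a count in all 7 libraries, at 0.313 to 2.38 CPM in the wild-type libraries and at 9.33, 0.613 and 0.389 CPM in knockout 1 to 3. It did not pass the filter for testing.

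Of 18 genes tied to NET formation, 16 had counts and 14 were tested, with 8 nominally higher and 6 lower in knockout, 0 called, and a median log2 fold change of 0.051. Ncf1, a cytosolic subunit of the phagocyte NADPH oxidase, stood at 526, 36.2, 156 and 127 CPM in the wild-type libraries and at 137, 247 and 19.3 CPM in the knockouts. Cyba, a membrane subunit of that oxidase, varied less, at 103 to 191 and 110 to 176 CPM. Selplg, the selectin ligand of leukocytes, stood at 40.6 to 411 and 45.4 to 283 CPM, and the chromatin protein gene Hmgb1 at 211 to 388 and 292 to 428 CPM. Dnase1, a nuclease that degrades NETs, had 0 counts in all libraries.

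Inhibitors of the granule proteases were present where the elastase transcript was at 0. Slpi, the secretory leukocyte protease inhibitor, which blocks elastase and cathepsin G, stood at 1851, 117, 577 and 559.7 CPM in the wild-type libraries and at 879, 856 and 226 CPM in the knockouts. Timp2, an inhibitor of matrix metalloproteinases, stood at 193, 33.5, 72.7 and 98.8 CPM and at 275, 240 and 50.05 CPM. Wfdc17 and Wfdc21, of the same protein family as Slpi, stood at 85.7 to 737 and 12.998 to 278 CPM in wild-type libraries and at 125 to 574 and 41.7 to 183 CPM in knockout. Serpina1a and A2m were at 0. Of the 14 listed, 7 were tested, with 3 nominally higher and 4 lower in knockout, 0 called, and a median log2 fold change of -0.0040.

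Of 14 gelatinase granule and late neutrophil genes, 13 were tested, with 11 nominally higher and 2 lower in knockout, 0 called, and a median log2 fold change of 0.41. This list holds Mmp9 and Padi4. Of 11 specific granule genes, 10 were tested, with 9 nominally higher and 1 lower, 0 called, and a median of 0.33. Over all 12506 genes tested, 6428 were nominally higher. The late list summed to 508 CPM in wild type 2 and 309 CPM in knockout 3, and to 1806 to 3937 CPM in the other libraries. These 2 low libraries, 1 of each genotype, are those with the lowest mature neutrophil mean.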

How the data were processed

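RNA was measured in 7 libraries. The authors' deposited table holds whole-number counts by Ensembl gene ID. RSEM 1.2.3, DESeq2 and mm10 are named, per the submitters' processing notes, with no role given, so the deposited values may be rounded expected counts. Aligner, annotation, strand setting and treatment of multi-mapped reads are not given in the sources used here. Of 51789 genes, 51596 matched a symbol. Coordinates are from GENCODE M21 (GRCm38, the build mm10 names).

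Knockout was compared with wild type over all genes in edgeR 4.0.16 (R 4.3.3): filterByExpr, TMM scaling, robust quasi-likelihood F test, Benjamini-Hochberg adjusted p under 0.05 for a call. The 12506 genes kept held 99.6% of counts. CPM uses TMM library sizes unless called unscaled or pooled, and log2 CPM has a prior count of 2. The test was checked on simulated data for the sign and size of large changes. That check does not give its power for changes as small as those of Mmp9 and Padi4.

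The 9 genes and the gene lists were chosen with earlier results of these data known. Named genes are the 9, up to 4 genes of highest mean CPM per list, listed granule and NET genes at 0, and the 5 profiles most like each of the 9 at a mean log2 CPM of 3 or more. Alternatives were DESeq2 1.42.0, limma-voom (limma 3.58.1, quality-weighted), scaling by upper quartile or RLE, no low-count filter, a minimum of 5 CPM in 3 libraries, a replicate block, the description stem or the mature neutrophil mean as a covariate, 1 stem alone, and leaving out libraries. Sequences are from RefSeq, GRCm38.p6.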

Additional observations from a re-analysis of the deposited data

Results flagged for a closer look

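In 6 of 74 values checked within the 4 wild-type libraries, 1 library lay far from the other 3. A chance rate of about 1 in 20 would need independent values of normal spread. Counts at 0 and genes that vary together are not such values, so no chance rate is set beside the 6. All 6 were in wild type 1. Mpo stood there at 0.598 CPM, from 2 counts, against 0 in the other 3, and Olfm4 at 7.17 CPM against 0 to 0.596 CPM. The specific granule genes Ngp at 387 CPM, Lcn2 at 340 CPM and Ltf at 279.98 CPM were far above the other wild-type libraries, and Hmgb1 at 211 CPM was far below them. Wild type 1 also had the highest mature neutrophil mean, 9.62, and the lowest summed T cell markers (245 CPM, against 316 to 894 CPM), B cell markers (4.78 CPM, against 45.3 to 130 CPM) and proliferation genes (2868 CPM, against 3176 to 6329 CPM) of the 7 libraries; their part in these values was not tested.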

How the results depend on the processing

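In 17 of 18 other settings no gene was called, and DESeq2 called 1. None of the 9 was called where tested, which was 2 of them in 15 settings, 3 in the fit of stem e1.Y alone and 7 in DESeq2 and without the filter; Elane and Ms4a3 were tested in none. The log2 fold change of Mmp9 was positive in 16 settings and that of Padi4 in 17. It was -0.23 for Mmp9 with the replicate block, -0.28 for Mmp9 without knockout 2 and -0.14 for Padi4 without knockout 1, and the cause was not tested. Leaving out 1 library at a time gave -0.28 to 0.87 for Mmp9, -0.14 to 0.97 for Padi4 and 0 genes called in each fit. Deviations of same-numbered libraries from the mean of their genotype correlated across genes at 0.35, -0.22 and -0.18 for replicates 1, 2 and 3. The signs differ, so these values do not settle whether the numbers are pairs, and the main test did not use pairs. With the replicate block 0 genes were called and wild type 4, which has no partner, added nothing. Genes at an unadjusted p under 0.05 numbered 80 to 544 over the settings. A prior count of 0.5 left the mean log2 CPM of Mmp9 at 8.52 and moved that of Elane, which has no counts, from -1.20 to -3.20, so log2 values of the early genes mark the prior count. With the limit of 3 counts, depth holds a gene at 0 to 0.0938 CPM over all libraries.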
